A study of Drosophila melanogaster with 16 samples.

Results

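Glutathione S-transferases (GSTs) and UDP-glycosyltransferases (UGTs) are families of conjugating enzymes, which act at the stage of detoxification that makes reactive or fat-soluble compounds easier to excrete. Their genes were taken from the expression table by symbol, GstD, GstE, GstO, GstS, GstT, GstZ or Ugt followed by a number, with at least 1 CPM (the unit the deposited table names, in which counts are scaled to the size of the library) in at least 4 of the 16 libraries. This gave 50 of the 9863 listed genes, 34 GSTs and 16 UGTs, and every gene that matched by symbol passed the filter. The GSTs were 10 delta (GstD), 14 epsilon (GstE), 3 omega (GstO), 1 sigma (GstS1), 4 theta (GstT) and 2 zeta (GstZ) genes. The UGTs carried the older names of the family. A further 16 genes that a current annotation names as UGTs were listed under other symbols and are described separately, and 4 genes named GstD11, Ugt37A1, Ugt36F1 and Ugt35D1 in that annotation are not analysed here.

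RNA came from whole larvae of Drosophila melanogaster, either controls or animals with the allele cwo B9, which the labels call mutant. Clockwork orange, the product of cwo, is a transcriptional repressor of the circadian clock, and the title of the series asks about its part in transcription that responds to sugar. First-instar larvae of both genotypes spent 24 h on a low-sugar diet of 10% yeast at 25 °C, and as early second-instar larvae they were placed for 8 h on either the same diet or a high-sugar diet of 10% yeast with 15% sucrose, each with 2% blue dye. Each of the 4 groups had 4 libraries: control larvae on low and on high sugar, and mutant larvae on low and on high sugar. The labels give neither the background of the control strain nor the sex or the number of larvae per library, and nothing in them says that the libraries of a group came from separate cultures, so the p-values measure the spread between these libraries, which may be technical. The RNA of cwo itself averaged 56.95, 68.9, 181 and 279 CPM in these groups, in that order, so that it was higher in the libraries labelled mutant (1.64 ± 0.09, adjusted p = 1.07e-09 on low sugar). What the allele does to the protein was not measured.

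GSTs join the tripeptide glutathione to electrophilic compounds, and several also reduce lipid peroxides or act as isomerases in normal metabolism. UGTs sit in the membrane of the endoplasmic reticulum and transfer a sugar, in insects mostly glucose from UDP-glucose, to small fat-soluble molecules such as plant toxins, pigments and hormones. In larvae the midgut, the Malpighian tubules and the fat body are known as main sites of both. Cap'n'collar (cnc, the fly homologue of Nrf2) with its inhibitor Keap1 is known to control many GSTs, and GstD1 is the usual reporter of that pathway.

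Every library held between 4.49e+07 and 5.42e+07 reads in listed genes. Library 1 of control on low sugar was the highest of its group for 27 of the 34 GSTs and 10 of the 16 UGTs. Library 3 of mutant on high sugar was the lowest of its group for 26 of the 34 GSTs and 10 of the 16 UGTs. On low sugar in mutant, library 1 was the highest of its group for 17 GSTs and 11 UGTs and library 4 the lowest for 14 GSTs and 10 UGTs. Library 1 of control on low sugar and library 3 of mutant on high sugar were also the libraries of their groups with the highest level of the Tweedle family, cuticle genes that are active around the moult, together with library 4 of control on high sugar and library 4 of mutant on low sugar. Results that rest on 1 of these libraries are given with and without it. In whole larvae, fewer cells of a type and less RNA per cell cannot be told apart.

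By level per exon length, averaged over all libraries, GstD1 stood first among the GSTs with 1465 CPM per kb, followed by GstD7 with 267, GstE3 with 197, GstE9 with 187 and GstE6 with 168 CPM per kb. The highest UGTs were Ugt86Da with 57.3, Ugt36Bc with 53.7 and Ugt35a with 44.1 CPM per kb. In CPM without regard to length, GstD1 alone made up 35.7% to 40.5% of the summed GST level of a group. The summed level of the 10 delta genes was 1420 ± 212 CPM (SD, n = 4) in control on low sugar and 2122 ± 139 on high sugar, and in mutant it was 1545 ± 96.9 and 1701 ± 92.7 CPM. The 14 epsilon genes summed to 549 ± 97.7, 1153 ± 43.4, 679 ± 22.9 and 867 ± 58.2 CPM in the same order. The ratio of high to low sugar was thus 2.101 for epsilon in control and 1.28 in mutant, and 1.49 and 1.10 for delta. Theta had ratios of 2.26 and 1.52, omega 1.503 and 1.17, sigma 1.14 and 0.832, zeta 0.721 and 0.560, and the 16 UGTs 1.27 and 1.14. Zeta was the class whose sum was lower on high sugar in both genotypes, and GstS1 was the sigma gene that was higher on high sugar in control and lower in mutant. These sums describe the classes and were not tested.

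**Figure D1:**
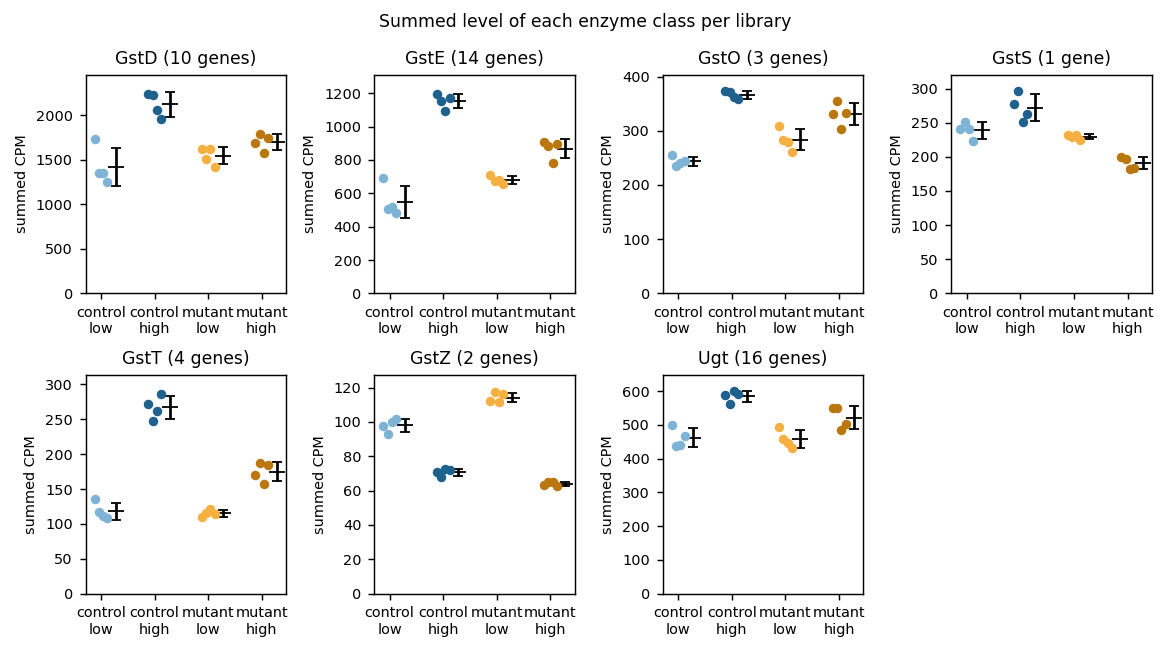
Summed CPM (vertical axis, linear from 0) of each enzyme class in the 4 groups of genotype and diet; points are libraries, bars are the mean ± SD of 4 libraries. The epsilon sum lies between 1094.5 and 1197 CPM in control on high sugar, above all libraries of the other 3 groups, and the zeta sum is lower on high sugar in both genotypes.

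Differences between groups are given as log2 differences of log2(CPM + 0.5) with their standard error (as ± SE), and a gene is said to have risen or fallen on high sugar, or to be higher or lower in mutant, where limma's adjusted p over all 9837 tested genes was under 0.05. Among the 34 GSTs, 19 rose and 5 fell on high sugar in control, where 67.9% of all tested genes passed, 33.1% as rises and 34.8% as falls. In mutant 13 GSTs rose and 11 fell, beside 22.5% and 29.5% of all genes (52.1% in either direction). The median log2 difference over the GSTs was 0.43 in control and 0.08 in mutant, while that of all tested genes was at most 0.0379 from 0 in any comparison and setting. Of the 16 UGTs 9 rose and 1 fell in control and 10 rose and 2 fell in mutant, with medians of 0.39 and 0.50. Rises of at least 2-fold were seen for 9 GSTs and 5 UGTs in control, where 5.16% of all genes rose that far, and for 5 GSTs and 4 UGTs in mutant, where 2.31% did. Falls of that size were seen for 3 GSTs and no UGT in each genotype (GstD3, GstD10 and GstT3 in control and GstD10, GstT3 and GstZ2 in mutant), beside 4.44% of all genes in control and 1.86% in mutant. Both diet comparisons together had 18 of the 50 genes that rose in both genotypes and 6 that fell in both, beside 19.8% and 26.2% of all tested genes.

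The effect of genotype was split by diet. On low sugar 13 GSTs were higher and 10 lower in mutant, beside 23.1% and 20.8% of all genes (43.8% in either direction), with a median of -0.03. On high sugar 5 GSTs were higher and 21 lower, beside 21.1% and 18.9% of all genes (40% in either direction), with a median of -0.38. Among the UGTs 5 were higher and 6 lower on low sugar, and 4 were higher and 8 lower on high sugar, with medians of -0.11 and -0.21. On low sugar 1 GST and 1 UGT were at least 2-fold higher and 2 GSTs and 2 UGTs at least 2-fold lower in mutant, beside 3.64% and 2.02% of all genes. On high sugar 1 GST and 3 UGTs were at least 2-fold higher and 4 GSTs and 2 UGTs at least 2-fold lower, beside 2.25% and 2.06% of all genes. Of the 50 genes 15 were lower in mutant on both diets and 9 were higher on both, beside 11.5% and 11.6% of all tested genes. GstD1, GstZ2 and Ugt37c1 were higher on low and lower on high sugar. Without the 4 libraries with the most Tweedle RNA, 6 GSTs were higher and 18 lower on high sugar, beside 1843 and 1649 of all 9837 tested genes. The authors' deposited table gives the same calls at an adjusted p of 0.05 for all 50 genes in all 4 comparisons, with 2 exceptions, GstD6 and GstT2 in the effect of genotype on low sugar.

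**Figure D2:**
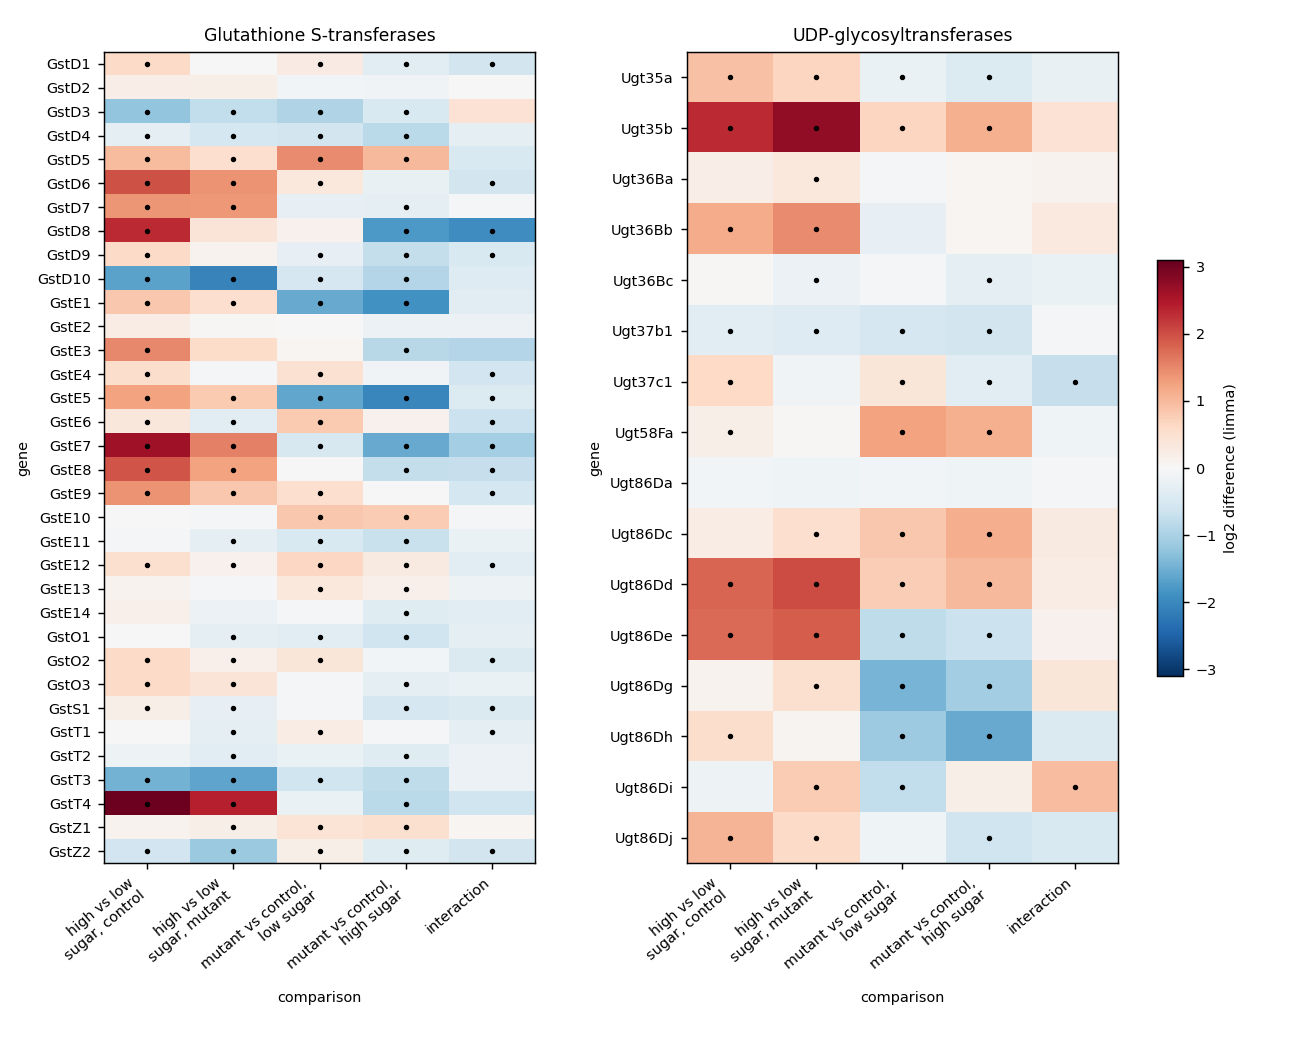
Log2 differences (colour, red higher and blue lower) of the 34 GSTs and 16 UGTs (rows) in the 4 comparisons of 2 groups and in the interaction (columns); a dot marks an adjusted p under 0.05. GstT4 has the largest log2 rise on high sugar in control on the scale used, 3.03, and 15 GSTs and 1 UGT have a dot with a negative interaction.

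Of 10 markers of midgut enterocytes 8 rose on high sugar in control and 7 in mutant, where 33.1% and 22.5% of all genes rose, and 7 were higher in mutant on low sugar and 4 on high sugar, where 23.1% and 21.1% of all genes were higher. Their summed level per library was 955 to 1094 CPM on low and 2106 to 2738 CPM on high sugar in control, and 1970.0 to 2373 CPM and 3383 to 4168 CPM in mutant. On high sugar the median difference of these markers between mutant and control was 0.05, betaTry (1.81) and Jon65Ai (1.55) being the highest, and 6 of the 10 were not called. Of 8 Malpighian tubule markers 2 rose and 4 fell on high sugar in each genotype, the lowest log2 difference being -5.13 in control and -6.23 in mutant. Their sum was 264 to 291 CPM on low and 199 to 224 CPM on high sugar in control, and 256 to 331 CPM and 207 to 232 CPM in mutant. The 6 listed fat body markers summed to 6030.2 to 7284 and 5422 to 6152 CPM in control and to 5575 to 7485 and 5736 to 6909 in mutant, and 1 of them rose and 4 fell on high sugar in control and 1 rose and 3 fell in mutant. Of 6 muscle markers 5 rose on high sugar in control and none in mutant, and 4 were lower in mutant on low sugar and all 6 on high sugar (-0.36 to -0.18). Of 6 neuron markers 5 rose on high sugar in control and 4 in mutant, 4 were higher in mutant on low sugar and 1 on high sugar. The 7 hemocyte markers had 2 rises and 2 falls in control and 3 rises and 2 falls in mutant. Between genotypes, 4 tubule markers were higher and 1 lower in mutant on low sugar, and 2 were higher and 1 lower on high sugar. Of the fat body markers 2 were lower in mutant on each diet, and of the hemocyte markers 3 on low and 1 on high sugar, with none higher in either list. Beside these counts, 34.8% of all tested genes fell on high sugar in control and 29.5% in mutant. Lower levels in mutant were found for 20.8% of all genes on low and 18.9% on high sugar. No marker of these lists was under 1 CPM in all libraries. The part of these tissues in the values below was not tested.

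The delta class lies as 10 neighbouring genes in 16.04 kb of chromosome arm 3R (3R:12364776-12380815, BDGP6). On high sugar 6 of them rose and 3 fell in control, beside 33.1% and 34.8% of all genes. In mutant 3 rose and 3 fell, beside 22.5% and 29.5% of all genes. GstD1, the most abundant GST of the larva and an enzyme known to act on DDT and on lipid peroxidation products, measured 1200.1, 967, 968 and 889.6 CPM in the libraries of control on low sugar and 1596, 1575, 1489.99 and 1407 CPM in control on high sugar. In mutant it measured 1240.2, 1202, 1243 and 1116 CPM on low sugar and 1213, 1268, 1148 and 1243 CPM on high sugar. The control groups did not overlap, whereas the mutant groups did. The difference between diets was 0.60 ± 0.08, adjusted p = 4.14e-06 in control and 0.02 ± 0.08, adjusted p = 0.827 in mutant, and the interaction, which is the response in mutant minus that in control, was -0.58 ± 0.11, adjusted p = 0.00233.

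GstD8 had the largest interaction of all 50 genes. Its level was 8.60, 9.17, 8.55 and 12.9 CPM in control on low sugar and 46.7, 72.9, 43.7 and 41.97 CPM on high sugar. In mutant it was 12.3, 9.64, 12.4 and 8.73 CPM on low sugar and 13.7, 15.5, 13.7 and 13.8 CPM on high sugar. Every library of control on high sugar was thus above 40 CPM and every other library below 16 CPM. The response was 2.31 ± 0.17, adjusted p = 1.17e-08 in control and 0.40 ± 0.17, adjusted p = 0.0592 in mutant. The interaction was -1.92 ± 0.24, adjusted p = 1.29e-04, and on high sugar the gene was lower in mutant (-1.79 ± 0.17, adjusted p = 6.68e-07). In mutant the difference between diets passed the threshold on leaving out library 4 of control on low sugar, library 2 of control on high sugar, or library 1 or 3 of mutant on low sugar, with values of 0.40 to 0.47.

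The other delta genes did not share a direction. GstD6, GstD7 and GstD5 rose in both genotypes, GstD6 from 3.85 to 16.6 CPM in control (1.97 ± 0.13, adjusted p = 4.46e-09) and from 5.001 to 14.03 CPM in mutant (1.40 ± 0.13, adjusted p = 4.57e-07). GstD7 rose from 123 to 320.2 CPM in control and from 103 to 261 CPM in mutant, by 1.38 and 1.34 on the log2 scale. GstD10 went the other way, with 78.04, 75.9, 67.9 and 64.4 CPM in control on low sugar and 25.996, 23.3, 20.9 and 19.01 CPM on high sugar, and with 56.998, 46.8, 49.1 and 47.1 CPM on low and 10.98, 12.9, 9.97 and 12.5 CPM on high sugar in mutant. It fell by 1.67 in control and by 2.06 in mutant on the log2 scale and was lower in mutant on both diets (-0.51 and -0.91), and its interaction of -0.40 passed without library 4 of control on high sugar (-0.47). GstD3 fell as well, from 68.6 to 29.3 CPM in control (-1.21 ± 0.11, adjusted p = 8.51e-08) and from 36.2 to 20.8 CPM in mutant (-0.77 ± 0.11, adjusted p = 2.12e-05). GstD3 and GstD6 lie on the same strand, so neighbours of 1 strand moved in opposite directions, as the plot of neighbouring genes shows.

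GstD5 was the delta gene that was higher in mutant on both diets. It measured 21.3, 9.47, 10.05 and 9.84 CPM in control and 35.5, 29.2, 38.9 and 32.9 CPM in mutant on low sugar, and 25.3, 28.02, 24.1 and 19.5 CPM in control and 52.3, 54.2, 42.6 and 47.4 CPM in mutant on high sugar. The difference was 1.47 ± 0.20, adjusted p = 3.01e-05 on low sugar and 1.01 ± 0.20, adjusted p = 8.70e-04 on high sugar. The control value of 21.3 CPM came from library 1, and without it the interaction of GstD5 moved from -0.46 to -0.73 and passed the threshold. GstD2 was not called in any comparison; its 4 values in control on low sugar were 149, 54.7, 63.7 and 61.6 CPM, and without library 1 its diet response in control moved from 0.21 to 0.54 and passed. GstD4 and GstD9 were lower in mutant on both diets, GstD4 with -0.57 and -0.84 and GstD9 with -0.26 and -0.73.

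Several delta calls changed when 1 library was left out. The fall of GstD4 in control (-0.29) was lost without library 1 of control on low sugar or library 3 or 4 of control on high sugar, where it was -0.27 to -0.19. The rise of GstD5 in mutant (0.52) was lost without library 1, 2 or 4 of either mutant group, with values of 0.45 to 0.54. GstD7 was lower in mutant on high sugar (-0.30), a call lost without library 1 or 2 of control or library 1, 3 or 4 of mutant on high sugar, with values of -0.29 to -0.25. It was not called on low sugar (-0.26) but passed without library 4 of control or library 1 of mutant on low sugar, with -0.33 and -0.36. The higher level of GstD6 in mutant on low sugar (0.33) was lost on leaving out any of 9 libraries, and its interaction (-0.57) on leaving out any of 11, with values of 0.26 to 0.35 and of -0.59 to -0.48. On high sugar GstD6 (-0.23) passed as lower in mutant without library 4 of control (-0.33). GstD9 lost its lower level in mutant on low sugar without library 1 or 4 of control or library 2, 3 or 4 of mutant on low sugar (-0.27 to -0.18). Its interaction of -0.47 was lost without library 2 or 3 of control on low sugar or library 1 or 3 of mutant on high sugar (-0.43 to -0.42). The number of delta genes with a negative interaction, 4, was 2 when any 1 of those 4 libraries was left out, and GstD3 passed with a positive one (0.47 to 0.53) without library 1 of control on high sugar or library 1 or 3 of mutant on low sugar.

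**Figure D3:**
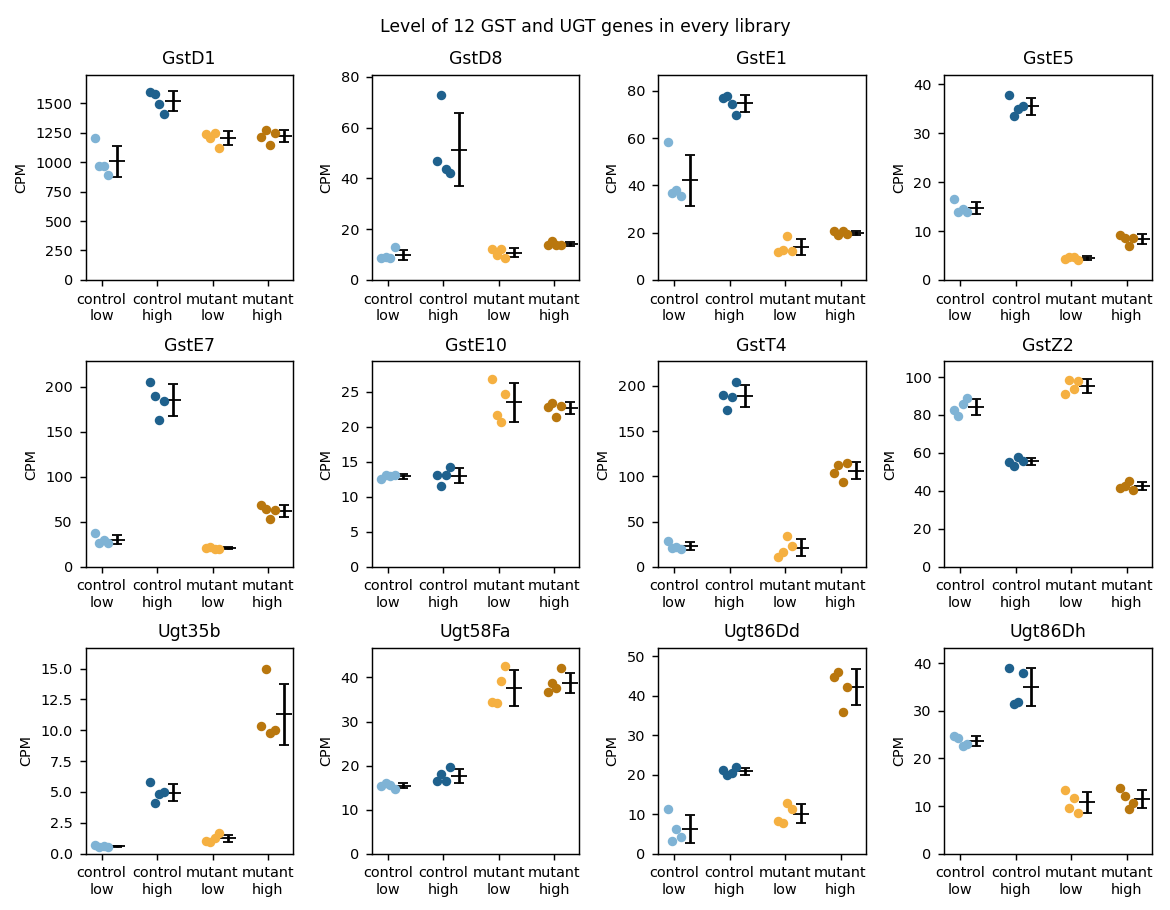
CPM (vertical axes, linear from 0) of 8 GSTs and 4 UGTs in the 4 groups of genotype and diet; points are libraries and bars are the mean ± SD of 4 libraries. GstD8 is above 40 CPM in control on high sugar and below 16 CPM elsewhere, whereas GstE10 and Ugt58Fa differ by genotype.

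Of the epsilon class, 10 of the 14 genes are neighbours in 13.198 kb of arm 2R (2R:18396638-18409835, BDGP6). These 10 had 8 rises and no fall in control and 5 rises and 1 fall in mutant, with medians of 1.05 and 0.55. The 4 epsilon genes elsewhere had 1 rise in control and 1 rise and 1 fall in mutant. Of all tested genes 33.1% rose and 34.8% fell in control, and 22.5% rose and 29.5% fell in mutant. GstE7 had the largest rise of the class. It measured 37.4, 26.1, 29.6 and 26.9 CPM in control on low sugar and 205, 189.8, 163 and 184 CPM on high sugar. In mutant it measured 20.8, 22.4, 20.03 and 20.1 CPM on low sugar and 68.2, 64.5, 53.1 and 63.3 CPM on high sugar, so that the diets did not overlap in either genotype. The response was 2.62 ± 0.10, adjusted p = 2.30e-11 in control and 1.55 ± 0.10, adjusted p = 1.53e-08 in mutant, the interaction was -1.06 ± 0.15, adjusted p = 3.64e-04, and GstE7 was lower in mutant on high sugar (-1.57 ± 0.10, adjusted p = 1.38e-08).

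The neighbours GstE8 and GstE9 had smaller rises of the same kind. GstE8 went from 12.7 to 49.96 CPM in control (1.95 ± 0.11, adjusted p = 1.01e-09) and from 12.3 to 29.7 CPM in mutant (1.24 ± 0.11, adjusted p = 3.55e-07). GstE9 went from 76.9 to 202 CPM in control (1.39 ± 0.08, adjusted p = 1.22e-09) and from 111 to 199 CPM in mutant (0.84 ± 0.08, adjusted p = 6.35e-07). The genotypes differed in another way for each: on high sugar GstE8 was lower in mutant (-0.74 ± 0.11), while GstE9 had a difference of -0.02 ± 0.08, adjusted p = 0.851, and on low sugar GstE9 was higher in mutant by 0.52 ± 0.08. The interaction was -0.72 for GstE8 and -0.55 for GstE9. Without the 4 libraries with the most Tweedle RNA, GstE8 changed from -0.02 to 0.17 in the effect of genotype on low sugar and passed as higher in mutant.

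GstE1 and GstE5 had the largest effects of genotype among the GSTs. GstE1, known to conjugate hydroxynonenal from lipid peroxidation, measured 58.3, 36.8, 37.95 and 35.7 CPM in control and 12.02, 12.5, 18.8 and 12.4 CPM in mutant on low sugar, and 77.1, 77.7, 74.3 and 69.6 CPM in control and 20.8, 19.05, 20.5 and 19.6 CPM in mutant on high sugar. The difference between genotypes was -1.56 ± 0.15, adjusted p = 5.97e-07 on low sugar and -1.88 ± 0.15, adjusted p = 8.32e-08 on high sugar. GstE5 measured 16.6, 13.9, 14.5 and 13.9 CPM in control and 4.28, 4.73, 4.79 and 4.17 CPM in mutant on low sugar, and 37.9, 33.5, 35.01 and 35.7 CPM in control and 9.19, 8.67, 6.99 and 8.59 CPM in mutant on high sugar. It was lower in mutant on low (-1.61 ± 0.08) and on high sugar (-2.03 ± 0.08), and no library of one genotype reached those of the other on the same diet. Both genes still rose on high sugar in mutant, GstE1 by 0.53 ± 0.15 and GstE5 by 0.82 ± 0.08.

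Next to them, GstE10 and GstE6 had the opposite effect of genotype. GstE10 measured 12.5, 13.1, 12.9 and 13.1 CPM in control and 26.8, 21.6, 20.7 and 24.7 CPM in mutant on low sugar, and 13.2, 11.5, 13.1 and 14.3 CPM in control and 22.8, 23.3, 21.4 and 22.99 CPM in mutant on high sugar. It was higher in mutant on both diets (0.83 ± 0.07, adjusted p = 3.91e-07 and 0.78 ± 0.07, adjusted p = 8.85e-07) and had no call for diet (0.01 in control and -0.04 in mutant). The exons of GstE10 and GstE1 overlap by 127 bases on opposite strands, and the kit was stranded per the labels, but no source used here gives the strand setting of the counting. GstE6, which starts 672 bases from the end of GstE5, was 103, 92.5, 90.3 and 84.4 CPM in control and 172, 155, 162 and 165 CPM in mutant on low sugar, and 128, 118, 113 and 116 CPM in control and 137, 138, 114.6 and 136 CPM in mutant on high sugar. It rose in control (0.36 ± 0.07, adjusted p = 3.02e-04), fell in mutant (-0.32 ± 0.07, adjusted p = 0.00134) and was higher in mutant on low sugar (0.82 ± 0.07, adjusted p = 2.01e-07). On high sugar its difference of 0.15 was not called, and it passed without library 3 of mutant on high sugar, where it was 0.21.

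GstE3, among the GSTs with the highest level per length, shows the weight of 1 library. It measured 197, 66.5, 85.1 and 61.3 CPM in control on low sugar, with library 1 far above the others, and 266, 258, 245 and 254 CPM in control on high sugar. In mutant it measured 93.2, 99.7, 101 and 86.2 CPM on low sugar and 162, 135, 120.3 and 152 CPM on high sugar. With all libraries it rose in control (1.49 ± 0.25, adjusted p = 9.39e-05), had a difference of 0.57 between diets in mutant and an interaction of -0.91, neither of which passed. Without library 1 of control on low sugar the response in mutant passed at the same value, 0.57, the interaction was -1.28 and passed, and GstE3 was higher in mutant on low sugar by 0.43, against 0.06 with it.

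Of the remaining epsilon genes, GstE12 was higher in mutant on both diets (0.64 ± 0.04 and 0.28 ± 0.04) and rose on high sugar by 0.50 ± 0.04 in control and by 0.14 ± 0.04 in mutant. GstE13 was also higher in mutant on both diets, by 0.33 and 0.17, and its diet response in control of 0.10 passed only without library 2 of control on high sugar (0.13). GstE11 was lower in mutant on both diets (-0.47 ± 0.08 and -0.69 ± 0.08). GstE14 (noppera-bo), which is needed for ecdysone synthesis, stayed between 1.29 and 2.61 CPM and had no call for diet. It was lower in mutant on high sugar (-0.38), a call lost without library 1 or 3 of either group on high sugar, with values of -0.38 to -0.30. GstE4 rose in control (0.54) and was higher in mutant on low sugar (0.48) at 1.14 to 2.32 CPM, with an interaction of -0.58 ± 0.15, adjusted p = 0.0195. GstE2, at 1.09 to 1.84 CPM, had no call in any comparison and passed as rising in control without library 2 of control on high sugar (0.30 against 0.22).

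Omega GSTs use a cysteine rather than a serine or tyrosine in their active site and act as thiol transferases. GstO2 measured 155, 152, 151 and 144 CPM in control on low sugar and 225, 235, 222 and 220.3 CPM on high sugar, and 211, 196, 189 and 179.9 CPM on low and 215, 237, 197 and 211 CPM on high sugar in mutant. The control groups did not overlap and those of mutant did. It rose in control (0.59 ± 0.06, adjusted p = 2.43e-07), and in mutant it rose by 0.15, a call lost without library 3 of control on low sugar, library 2, 3 or 4 of mutant on low sugar or library 1, 2 or 4 of mutant on high sugar, with 0.10 to 0.15. The interaction was -0.44 ± 0.08, adjusted p = 0.00217. GstO3 rose in both genotypes, from 90.7 to 138 CPM in control and from 86.8 to 114 CPM in mutant (0.60 ± 0.07 and 0.39 ± 0.07). GstO1, at 1.49 to 3.20 CPM, was lower in mutant on both diets (-0.32 and -0.63). It fell in mutant by 0.29, which was lost without library 2 of mutant on low or library 4 of mutant on high sugar (-0.25 and -0.24), and its interaction of -0.31 passed without library 2 of mutant on high sugar (-0.39).

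GstS1, the sigma GST, is known as an abundant enzyme of muscle. It measured 240.2, 251, 241 and 223 CPM in control on low sugar and 278, 296, 252 and 263 CPM on high sugar. In mutant it measured 232, 229, 232 and 224 CPM on low sugar and 199.9, 197, 182 and 184 CPM on high sugar. The level was thus higher on high sugar in control and lower in mutant, with no overlap between the diets in either genotype, although the highest control library on low sugar (251 CPM) and the lowest on high sugar (252 CPM) were close. The response was 0.19 ± 0.05, adjusted p = 0.00485 in control and -0.27 ± 0.05, adjusted p = 5.28e-04 in mutant, with an interaction of -0.45 ± 0.07, adjusted p = 0.00106. The 6 muscle markers had a median difference of -0.27 between mutant and control on high sugar, beside -0.51 for GstS1, and the part of muscle in this value was not tested. Under quantile normalization the rise of GstS1 in control was 0.11 and did not pass, and its difference between genotypes on low sugar was -0.13 and passed.

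Theta GSTs are an old branch of the family, and the diet response of their 4 genes in control ran from -1.47 to 3.03. GstT4, on the X chromosome, had the largest log2 rise on high sugar of all 50 genes in control, while in mutant that of Ugt35b (2.76) was larger. It measured 28.8, 21.3, 21.9 and 19.3 CPM in control on low sugar and 189, 173, 188 and 204 CPM on high sugar, and 11.05, 16.7, 33.7 and 22.99 CPM on low and 103, 112, 93.96 and 114.8 CPM on high sugar in mutant. The diets were far apart in both genotypes (3.03 ± 0.23, adjusted p = 2.06e-08 in control and 2.41 ± 0.23, adjusted p = 6.80e-07 in mutant). On high sugar GstT4 was lower in mutant (-0.83 ± 0.23, adjusted p = 0.00974), a difference of -0.73 that did not pass without the 4 libraries with the most Tweedle RNA. Its interaction of -0.62 passed without library 1 of mutant on low sugar (-0.88).

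GstT3, also on the X chromosome, moved in the opposite direction to GstT4. It measured 25.3, 25.8, 22.1 and 22.9 CPM in control on low sugar and 8.16, 8.69, 8.03 and 8.56 CPM on high sugar, and 17.6, 17.4, 13.9 and 13.6 CPM on low and 3.68, 5.44, 4.39 and 5.28 CPM on high sugar in mutant. It fell by 1.47 in control and by 1.64 in mutant on the log2 scale, and it was lower in mutant on both diets (-0.61 ± 0.11 and -0.78 ± 0.11). GstT1 and GstT2, which are neighbours on arm 2R, fell in mutant by 0.29 and by 0.33 and had no call for diet in control. The higher level of GstT1 in mutant on low sugar (0.23) was lost without library 4 of control on low sugar (0.19), and its interaction (-0.30) on leaving out any of 12 libraries (-0.32 to -0.27). GstT2 was lower in mutant on high sugar (-0.38), and its value on low sugar (-0.20) passed without library 3 of control or library 1 of mutant on low sugar (-0.24 and -0.28).

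Zeta GSTs are known as maleylacetoacetate isomerases, enzymes of tyrosine breakdown. GstZ2 measured 82.5, 79.2, 85.7 and 88.9 CPM in control on low sugar and 55.1, 53.2, 57.9 and 55.9 CPM on high sugar, and 91.01, 98.6, 93.9 and 97.9 CPM on low and 41.5, 42.7, 45.4 and 40.2 CPM on high sugar in mutant. It fell on high sugar in both genotypes, by 0.59 in control and by 1.16 in mutant on the log2 scale, and the interaction was -0.57 ± 0.07, adjusted p = 9.66e-05. It was higher in mutant on low sugar (0.18 ± 0.05) and lower on high sugar (-0.38 ± 0.05). GstZ1, its neighbour on arm 3R, was higher in mutant on both diets (0.42 ± 0.06 and 0.49 ± 0.06). The rise of GstZ1 on high sugar in mutant (0.19) was lost without library 2, 3 or 4 of mutant on low sugar or library 2 or 4 of mutant on high sugar, with 0.15 to 0.18.

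Of the UGTs, 10 of the 16 are neighbours in 51.314 kb of arm 3R (3R:11126597-11177910, BDGP6). They had 6 rises in control and 8 in mutant, beside 33.1% and 22.5% of all genes. No fall was seen in either genotype, where 34.8% and 29.5% of all genes fell. Ugt35b had the largest rise. It measured 0.663, 0.539, 0.599 and 0.552 CPM in control on low sugar and 5.79, 4.14, 4.80 and 5.02 CPM on high sugar, and 1.02, 0.977, 1.27 and 1.67 CPM on low and 10.3, 14.9, 9.81 and 10.02 CPM on high sugar in mutant. The response was 2.31 ± 0.14, adjusted p = 2.24e-09 in control and 2.76 ± 0.14, adjusted p = 8.36e-10 in mutant, and Ugt35b was higher in mutant on both diets (0.66 ± 0.14 and 1.10 ± 0.14). Its levels on low sugar are near the pseudocount of 0.5, so the log2 scale used here understates its rise. The rise in control, which starts from lower levels, is understated more than that in mutant, and this adds to the interaction. The interaction of Ugt35b was 0.45 and did not pass, and with a pseudocount of 1 it was 0.55 and passed.

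Ugt86Dd, a gene at which natural variants are known to alter resistance of larvae to nicotine, rose in both genotypes as well. It measured 11.3, 3.21, 6.16 and 4.27 CPM in control on low sugar and 21.2, 19.8, 20.5 and 21.8 CPM on high sugar, and 8.23, 7.89, 12.8 and 11.4 CPM on low and 44.7, 45.98, 35.7 and 42.3 CPM on high sugar in mutant. It rose in control (1.81 ± 0.26, adjusted p = 1.63e-05) and in mutant (2.03 ± 0.26, adjusted p = 1.04e-05) and was higher in mutant on high sugar (0.99 ± 0.26, adjusted p = 0.00617). On low sugar its higher level in mutant (0.77) was lost without library 2 or 4 of control or library 3 or 4 of mutant on low sugar, with 0.53 to 0.70. Ugt86De rose too, by 1.75 ± 0.16 in control and by 1.88 ± 0.16 in mutant, and was lower in mutant on both diets (-0.79 ± 0.16 and -0.67 ± 0.16).

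Effects of genotype in this group of neighbours went both ways. Ugt86Dg measured 9.97, 9.23, 10.3 and 10.2 CPM in control and 4.32, 3.099, 3.26 and 2.81 CPM in mutant on low sugar, and 10.9, 11.04, 9.23 and 12.1 CPM in control and 5.19, 6.43, 3.36 and 4.96 CPM in mutant on high sugar (-1.44 ± 0.15, adjusted p = 1.65e-06 and -1.07 ± 0.15, adjusted p = 3.53e-05). Ugt86Dh measured 24.7, 24.3, 22.6 and 22.96 CPM in control and 13.3, 9.56, 11.8 and 8.44 CPM in mutant on low sugar, and 38.99, 31.4, 31.7 and 37.99 CPM in control and 13.8, 12.1, 9.45 and 10.6 CPM in mutant on high sugar (-1.12 ± 0.13, adjusted p = 5.87e-06 and -1.57 ± 0.13, adjusted p = 1.64e-07). Both were lower in mutant with no overlap between the genotypes on the same diet. For diet, Ugt86Dh rose in control (0.55 ± 0.13) and Ugt86Dg in mutant (0.49 ± 0.15), and the interaction of Ugt86Dg (0.37) passed without library 3 of mutant on high sugar (0.53). Ugt86Dc was higher in mutant on both diets, by 0.84 ± 0.15 and 1.12 ± 0.15, and rose on high sugar in mutant (0.51 ± 0.15). Ugt86Da, the UGT with the highest level per length, had no call in any comparison, with differences between -0.14 and -0.05. It passed as falling in mutant without library 4 of mutant on low sugar (-0.19 against -0.14).

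Ugt86Di was the UGT whose positive interaction passed with all libraries, while 8 of the 16 UGTs had a positive value. It measured 1.39, 1.66, 1.48 and 1.65 CPM in control on low sugar and 1.44, 1.31, 1.20 and 1.36 CPM on high sugar, and 0.977, 0.657, 0.717 and 0.536 CPM on low and 1.92, 2.103, 1.13 and 1.35 CPM on high sugar in mutant. The response was -0.16 ± 0.14, adjusted p = 0.322 in control and 0.78 ± 0.14, adjusted p = 2.58e-04 in mutant, with an interaction of 0.95 ± 0.20, adjusted p = 0.0057. It was lower in mutant on low sugar (-0.75 ± 0.14). All its values were at or below 2.103 CPM, and with a filter of 5 CPM it was not tested. Ugt37c1, on arm 2R, had the opposite interaction (-0.72 ± 0.16, adjusted p = 0.00839), with 53.1, 43.1, 51.3 and 54.2 CPM and 71.3, 69.5, 102 and 72.6 CPM in control and 58.8, 67.4, 65.4 and 72.4 CPM and 63.2, 64.8, 66.1 and 52.7 CPM in mutant on low and high sugar. It rose in control (0.62 ± 0.12), was higher in mutant on low sugar (0.39 ± 0.12) and lower on high sugar (-0.34), a call lost without library 3 of control (-0.21) or library 4 of mutant on high sugar (-0.26).

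Ugt58Fa had the largest positive effect of genotype on low sugar among the 16 genes with a Ugt symbol and a small response to diet. It measured 15.4, 16.01, 15.7 and 14.6 CPM in control and 34.5, 34.1, 39.2 and 42.5 CPM in mutant on low sugar, and 16.4, 18.04, 16.6 and 19.8 CPM in control and 36.6, 38.7, 37.7 and 42.1 CPM in mutant on high sugar. It was higher in mutant by 1.25 ± 0.07, adjusted p = 3.31e-09 on low sugar and by 1.11 ± 0.07, adjusted p = 1.44e-08 on high sugar, with no overlap. Its rise on high sugar in control (0.19) was lost without library 1, 3 or 4 of control on low sugar or library 2 or 4 of control on high sugar, with 0.14 to 0.20. Ugt36Bb, at 0.12 to 2.77 CPM, rose in control (1.15 ± 0.22) and in mutant (1.46 ± 0.22), while its neighbours were less affected: Ugt36Ba rose in mutant by 0.34, and Ugt36Bc had -0.19 in mutant, a call lost on leaving out any of 11 libraries (-0.19 to -0.14). The response of Ugt36Ba in control (0.22) passed without library 1 of control on low sugar, library 1 or 4 of mutant on low sugar or library 1 of mutant on high sugar (0.22 to 0.26). Ugt36Bc was lower in mutant on high sugar (-0.28 ± 0.07).

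Ugt35a and Ugt86Dj rose in both genotypes. Ugt35a went from 61.1 to 114.6 CPM in control (0.90 ± 0.07) and from 53.4 to 84.7 CPM in mutant (0.66 ± 0.07). It was lower in mutant on high sugar (-0.43) and on low sugar (-0.20), the latter a call lost on leaving out any of 10 libraries (-0.20 to -0.15). Ugt86Dj went from 4.90 to 10.8 CPM in control (1.06 ± 0.11) and from 4.47 to 6.88 CPM in mutant (0.58 ± 0.11). Ugt37b1 was lower in mutant on both diets (-0.53 ± 0.14 and -0.57 ± 0.14) and was the UGT that fell on high sugar in both genotypes. It fell by 0.36 in control and by 0.41 in mutant, and these calls were lost without library 1, 2 or 4 of control on low sugar or 3 or 4 of control on high sugar (-0.35 to -0.31), and without library 1 or 2 of mutant on low sugar or 3 or 4 of mutant on high sugar (-0.38 to -0.27).

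The test of the interaction asks directly whether the response to sugar differed between the genotypes. It was negative for 15 of the 34 GSTs and positive for none, with a median of -0.38, where 16.9% of all tested genes passed, 7.92% with a positive and 8.95% with a negative one. For 2 of the GSTs, GstD8 and GstE7, the difference between the responses was at least 2-fold, beside 1.07% of all genes that were negative and 0.529% that were positive at that size. The 15 were 4 delta, 7 epsilon, 1 omega, 1 sigma, 1 theta and 1 zeta genes. Of these, 11 rose in control and had a smaller rise or no call in mutant, GstE6 and GstS1 rose in control and fell in mutant, GstT1 fell in mutant without a call in control, and GstZ2 fell further in mutant than in control. Of the 10 midgut enterocyte markers 4 had a negative interaction (Mal-A1 -1.57, alphaTry -0.94, Myo31DF -0.34 and thetaTry) and 1 a positive one, with a median of -0.29. For Mal-A1 and thetaTry the difference between the responses was at least 2-fold. Of 6 neuron markers 3 had a negative interaction and none a positive one, with a median of -0.28. In the other lists no positive one passed. A negative one was found for 1 of 8 Malpighian tubule markers (median -0.32), 1 of 6 fat body markers (0.19), 1 of 6 muscle markers (-0.15) and 0 of 7 hemocyte markers (0.14). The part of these tissues in the GST interactions was not tested. Of the UGTs, 1 had a positive and 1 a negative interaction, with a median of 0.04. Without library 1 of control on low sugar 17 GSTs had a negative interaction, beside 831 of all 9837 tested genes. Leaving out each library in turn gave 12 to 17 GSTs. The interactions of GstD6, GstD9 and GstT1 were lost on leaving out any 1 of 11, 4 and 12 libraries. The UGT count was 4 without library 4 of mutant on low sugar, when Ugt86Dh (-0.56) and Ugt86Dj (-0.59) passed as well, beside 1393 of all genes.

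**Figure D4:**
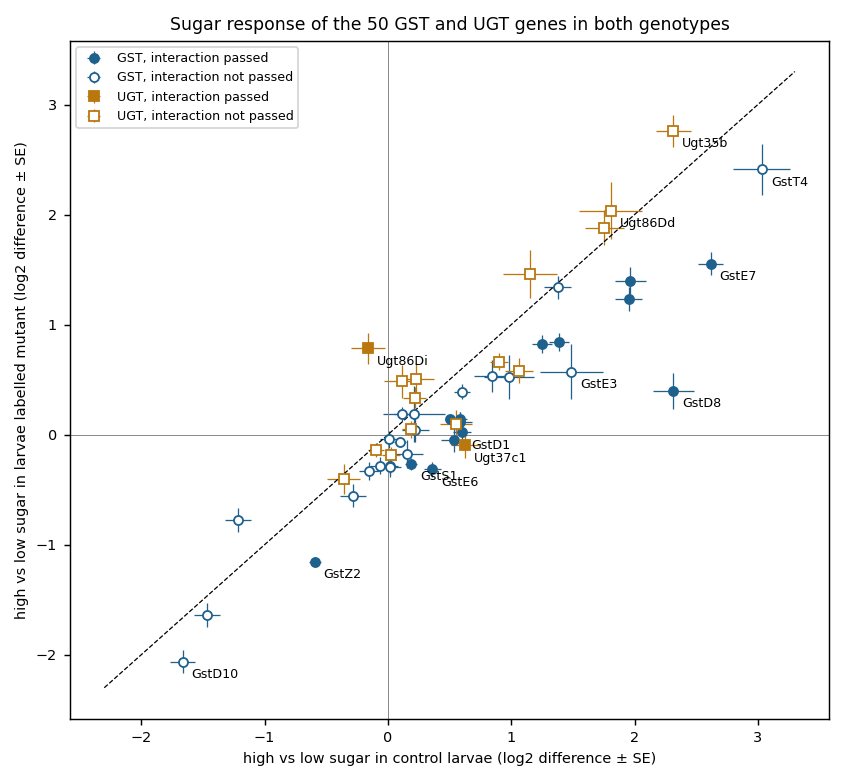
Log2 difference between high and low sugar in control larvae (horizontal axis) and in larvae labelled mutant (vertical axis) for 34 GSTs (circles) and 16 UGTs (squares), with SE; filled symbols passed the test of the interaction and the dashed line marks equal responses. GstD8 (2.31 and 0.40) and GstE7 (2.62 and 1.55) lie below the line, and Ugt86Di (-0.16 and 0.78) lies above it.

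For diet in control 8 of the 10 epsilon neighbours rose, where 33.1% of all genes did, and GstE10 (0.01) and GstE2 (0.22) were not called. Neither the epsilon neighbours in control nor the UGT neighbours in either genotype had a fall. Falls made up 34.8% of all tested genes in control and 29.5% in mutant. In the delta group GstD10 fell by 1.67 on high sugar in control and GstD9 next to it rose by 0.59. Between genotypes close neighbours differed in sign. In the epsilon group the effect of genotype on low sugar ran from -1.56 for GstE1 to 0.83 for GstE10, its neighbour on the other strand, and from -1.61 for GstE5 to 0.82 for GstE6. Among the UGT neighbours it ran from -1.44 for Ugt86Dg to 0.84 for Ugt86Dc. In all, 40 of the 50 genes lie in a group of neighbours, 18 have a single exon, and the exons of 7 overlap a gene on the other strand. Reads that match more than 1 copy of such families may have been split or dropped by the authors' counting, so levels of close copies are uncertain.

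**Figure D5:**
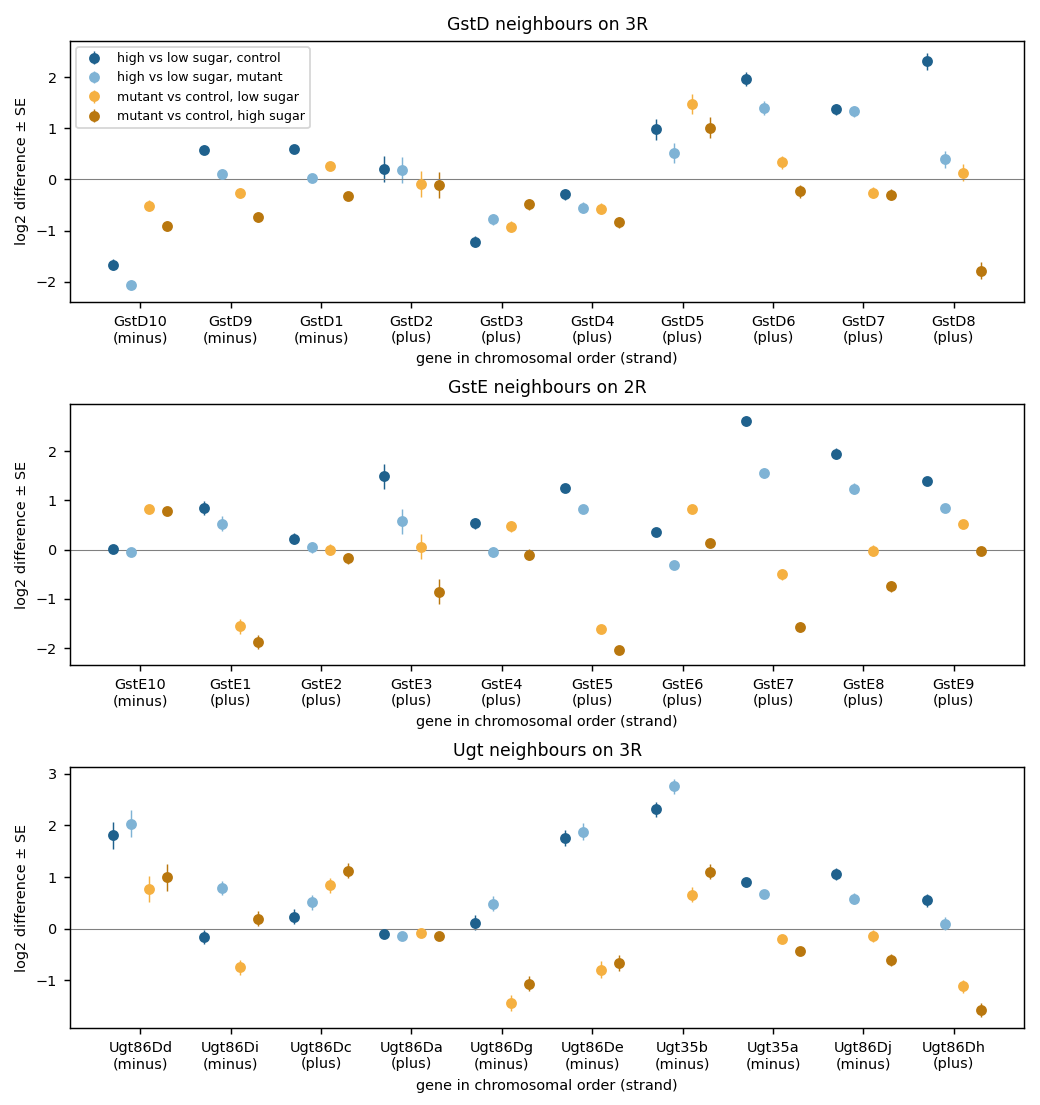
Log2 differences ± SE (vertical axis) of the 10 delta, 10 epsilon and 10 UGT neighbours in chromosomal order (horizontal axis) for the 2 diet and the 2 genotype comparisons. Some adjacent genes differ in sign, as GstE5 (-1.61) and GstE6 (0.82) do between mutant and control on low sugar. For diet in control 8 of the 10 epsilon neighbours rose, beside 33.1% of all genes, and GstE10 was at 0.01.

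The 16 further UGTs listed under other symbols had 13 rises and no fall on high sugar in control and 9 rises and no fall in mutant, with medians of 0.69 and 0.38, where 33.1% and 22.5% of all genes rose. CG17323 (Ugt36D1) had the largest rise, 2.74 ± 0.35, adjusted p = 4.83e-06 in control and 1.42 ± 0.35, adjusted p = 0.00307 in mutant, and its interaction of -1.33 passed without library 1 of mutant on low sugar (-1.65). CG15661 (Ugt49C1) rose by 1.98 ± 0.15 in control and by 1.03 ± 0.15 in mutant, with an interaction of -0.95 ± 0.21, adjusted p = 0.00704. Its neighbour CG4302 (Ugt49B1) rose by 1.30 ± 0.06 and 0.62 ± 0.06, with an interaction of -0.68 ± 0.09, adjusted p = 1.99e-04. In this set 5 interactions passed, all of them negative (8.95% of all genes) and in genes that rose in control, and that of CG30438 (-0.74) was lost without library 3 of control on high sugar (-0.71). On high sugar 8 of the 16 were lower and 3 higher in mutant, beside 18.9% and 21.1% of all genes, and on low sugar 4 were lower and 5 higher, beside 20.8% and 23.1%. CG18869 (Ugt305A1) rose in mutant by 0.31, a call lost without library 2 or 4 of mutant on low or library 1 or 2 of mutant on high sugar (0.26 to 0.28).

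Genes that supply the cosubstrates were chosen from textbook knowledge, and their counts stand beside the same background, 33.1% of all genes risen and 34.8% fallen in control and 22.5% and 29.5% in mutant. Of 10 listed genes of glutathione synthesis and recycling 7 rose and 2 fell on high sugar in control, and 5 rose and 3 fell in mutant. Zw, Pgd and Men, which regenerate NADPH, rose by 2.32 ± 0.08, 1.64 ± 0.08 and 1.87 ± 0.05 in control and by 1.93 ± 0.08, 1.496 ± 0.08 and 1.49 ± 0.05 in mutant. Gclc, the catalytic subunit of the first enzyme of glutathione synthesis, rose by 0.23 and 0.25, while its modifier subunit Gclm fell by 0.59 in control and by 0.50 in mutant and was higher in mutant on both diets (0.53 and 0.61). Mgstl, a microsomal GST of a separate family, fell by 1.09 and by 0.90. Idh, another source of NADPH, rose in control (0.34 ± 0.05) and fell in mutant (-0.44 ± 0.05), with an interaction of -0.78 ± 0.07, adjusted p = 6.60e-06.

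The 3 genes of UDP-sugar supply, UGP, sgl and Pgm, all rose in both genotypes. UGP, which makes UDP-glucose, rose by 0.87 ± 0.04 in control and by 1.29 ± 0.04 in mutant, with a positive interaction of 0.41 ± 0.05, adjusted p = 2.50e-04. Its product is oxidised by the enzyme of sgl, which rose by 1.09 ± 0.06 and by 0.19 ± 0.06, with a negative interaction of -0.90 ± 0.08, adjusted p = 7.39e-06. Among 10 regulators 8 rose in control and 6 in mutant, where 33.1% and 22.5% of all genes rose. The only fall, that of tgo in control (-0.20, where 34.8% of all genes fell), was lost without library 3 of control on low sugar or library 1 or 4 of control on high sugar (-0.18 to -0.15). Hr96, a nuclear receptor of the xenobiotic response, rose by 0.37 ± 0.06 and 0.18 ± 0.06, and maf-S, the partner of cnc, by 0.41 ± 0.06 and 0.25 ± 0.06. In control cnc rose by 0.20, and it was lower in mutant on high sugar (-0.20), a call lost without library 2 of control on high sugar (-0.16). No regulator had an interaction that passed. Without library 1 of mutant on low sugar those of cwo (0.25), Mondo (-0.26) and sug passed, without library 4 of that group that of cwo (0.42), without library 1 of control on low sugar that of sug (-0.82 and -0.81 in the 2 cases), and without library 2 of control on high sugar that of bigmax (-0.33).

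Among genes of export, Mdr49, an ABC transporter that pumps drugs out of cells, rose by 2.34 ± 0.05 in control and by 1.10 ± 0.05 in mutant, was higher in mutant on low sugar (0.99 ± 0.05) and lower on high sugar (-0.25 ± 0.05), and had an interaction of -1.24 ± 0.07, adjusted p = 6.21e-08. Of the 9 listed genes of export and other conjugation 5 rose in control (33.1% of all genes), 4 rose and 1 fell in mutant (22.5% and 29.5%), and 6 were lower in mutant on high sugar (18.9%).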

How the data were processed

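Total RNA of whole larvae was depleted of ribosomal RNA and sequenced with a stranded kit as single-end reads of 75 bases in 2 technical runs per sample, per the labels' protocols. Trimmomatic, TopHat2 2.1.0, HTSeq and limma are named in the submitters' processing notes, while no source used here gives the genome build, the annotation or the strand setting of the counting. The deposited table holds 1 column per library whose name calls it CPM. It was treated as a normalised signal scaled by the authors, since 9 of the 16 columns sum to more than CPM allows. These were all libraries on high sugar and library 1 of mutant on low sugar. Column sums in control were 9.609e+05 to 9.714e+05 on low and 1.019e+06 to 1.044e+06 on high sugar. In mutant they were 9.72e+05 to 1.013e+06 and 1.005e+06 to 1.032e+06. The summed levels of the classes and their ratios were not rescaled for this difference. The step between its lowest values gave the depth, 4.49e+07 to 5.42e+07 reads in listed genes (whole to within 0.0001 reads), but a count test was not run. The table also holds the authors' deposited log2 coefficients and mean log2 levels, their t and F statistics (here units of score) and their p-values, of which the calls were used for comparison only.

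Values were tested on log2(CPM + 0.5) with limma 3.58.1 in R 4.3.3 (1 mean per group over all 16 libraries, moderated variances with a trend, two-sided). Genes needed 1 CPM in 4 libraries, which left 9837 of 9863. P-values were adjusted by Benjamini and Hochberg within each of 5 comparisons, diet in control, diet in mutant, genotype on low sugar, genotype on high sugar and the interaction, with a threshold of 0.05. The diet and the genotype comparisons share libraries with each other. The design had assumed CPM, and the test for that unit was kept. The fit was tested on simulated data. Tables and figures were made with Python 3.11.15, numpy 2.4.6, pandas 2.3.3 and matplotlib 3.10.9.

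Named with full values are, in each class, the member with the highest mean CPM, the member (3 for delta, epsilon and UGT) with the largest rise and with the largest fall in each comparison of 2 groups among those that passed and reached 5 CPM in the higher of both groups, and the 3 GSTs and 3 UGTs with the smallest adjusted p of the interaction. This names 40 of the 50 genes. The others (GstD2, GstD9, GstE2, GstE4, GstE14, GstO1, GstT2, Ugt35a, Ugt36Ba and Ugt36Bb) lie outside that rule and are given so that every gene is accounted for. Members, marker lists and pathway lists were chosen with earlier results of these data known. Neighbours are genes within 50 kb of each other, and positions and exon lengths come from the BDGP6 annotation of Ensembl, matched by FlyBase identifier for all 66 GST and UGT genes. Protein and promoter sequences were not used here. Of the pathway genes looked for, Gss1, Gss2, Trxr-2, se, St1 and St2 are not analysed here. Samples were grouped by the labels. Alternatives were other pseudocounts (0.1 and 1), no filter and a filter of 5 CPM, median-ratio and quantile scaling, robust variances, the replicate number as a block, fits without the 4 libraries of highest Tweedle level, with that level as a covariate or on the 8 libraries of each comparison, and leaving out each library in turn.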

Additional observations from a re-analysis of the deposited data

Results flagged for a closer look

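In 14 of 160 gene and group combinations looked at, 1 library lay apart from the other 3 by Dixon's test, which chance alone gives in about 5% of groups. Library 1 of control on low sugar was the high value for GstD5 (21.3 CPM), GstE1 (58.3 CPM), GstE8 (17.003 CPM), GstE11 (19.98 CPM) and GstT1 (63.3 CPM), and it was the highest of its group for 27 of the 34 GSTs. Library 3 of mutant on high sugar was the low value for GstE6 (114.6 CPM) and GstE9 (175 CPM). Both libraries had the highest Tweedle level of their group, and the part of that difference in these values was not tested. GstD8 had a high library in control on low sugar (12.9 CPM), in control on high sugar (72.9 CPM) and in mutant on high sugar (15.5 CPM). The high libraries of both high-sugar groups had the same replicate number, and that of control on low sugar had another. Single high libraries were also found for GstE1 in mutant on low sugar (18.8 CPM), Ugt35b in mutant on high sugar (14.9 CPM), Ugt37c1 in control on high sugar (102 CPM) and Ugt86De in control on high sugar (15.1 CPM).

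The response to sugar differed between the genotypes, by limma's test of the interaction, for 15 of the named genes. The log2 difference between the responses (mutant minus control) was -1.92 for GstD8, -1.06 for GstE7, -0.72 for GstE8 and for Ugt37c1, and -0.67 for GstE6. It was -0.58 for GstD1, -0.57 for GstD6 and for GstZ2, and -0.55 for GstE9. Values of -0.45 for GstS1, -0.44 for GstO2, -0.42 for GstE5, -0.36 for GstE12 and -0.30 for GstT1 were smaller in size. The calls of GstD6 and GstT1 were lost on leaving out any 1 of 11 and of 12 libraries. Ugt86Di, at or below 2.103 CPM in every library, had a positive value of 0.95.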

How the results depend on the processing

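Of 200 named results, 159 kept their call under every alternative run (up to 27 for a comparison of 2 groups and 26 for the interaction), and 35 of the other 41 changed under an alternative other than leaving out a library. GstE8 between genotypes on low sugar, not called at -0.02, was 0.17 and passed without the 4 libraries of highest Tweedle level. The number of UGTs with an interaction, 2, was 4 with a pseudocount of 1 and 1 with a filter of 5 CPM, which left 14 UGTs. Of all 9837 tested genes 1659 had one, 1669 with a pseudocount of 1, and 1578 of 8413 with that filter. Leaving out each library in turn gave 2 to 4 UGTs and 12 to 17 GSTs with an interaction, beside 1196 to 2451 of all 9837 genes. For the other comparisons it gave 23 to 26 GSTs and 8 to 11 UGTs for diet in control, 20 to 25 and 10 to 13 for diet in mutant, 21 to 24 and 9 to 11 for genotype on low sugar, and 24 to 27 and 11 to 12 for genotype on high sugar. In the same order 6302 to 6893, 4608 to 5233, 3807 to 4850 and 3450 to 4331 of all 9837 genes were called. Under quantile normalization 12 GSTs were higher and 13 lower in mutant on low sugar, against 13 and 10. Of all 9837 genes 1911 were then higher and 2510 lower, against 2268 and 2045. Replicate numbers were not shown to pair the libraries: the correlation of same-numbered libraries was -0.34 to 0.44, over 0.1 in 13 of 24 pairs, and 5 of 16 libraries correlated best with their own number. With the replicate number as a block, 25 GSTs and 11 UGTs were called for diet in control, 24 and 13 for diet in mutant, 25 and 11 for genotype on low sugar, 27 and 12 for genotype on high sugar, and 16 and 3 for the interaction. Of all 9837 genes 6830, 5400, 4629, 4229 and 1949 were called with that block, in the same order. The causes of these changes were not tested. Depth limits the genes near 1 CPM, such as GstE2, GstE4, GstE14, Ugt36Bb and Ugt86Di.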

Other observations

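Among the UGTs listed under other symbols, CG5724 and CG5999 (Ugt37A2 and Ugt37A3), neighbours on arm 3R, rose in control by 1.60 ± 0.16 and 0.90 ± 0.14 on the log2 scale. In mutant CG5724 rose by 0.97 ± 0.16 and CG5999 had a difference of 0.03 ± 0.14 that did not pass, with an interaction of -0.87 ± 0.20, adjusted p = 0.00995. Both were lower in mutant on high sugar (-0.83 ± 0.16 and -0.77 ± 0.14). Without library 1 or 4 of control on low sugar or library 1 of mutant on low sugar the interaction of CG5724 passed as well (-0.76 to -0.74). CG10170 and CG10178 (Ugt303B3 and Ugt301D1) were lower in mutant on both diets, with -0.77 and -0.68 for the former and -0.78 and -0.99 for the latter. The rise of CG10178 in control (0.47) was lost without library 1 or 2 of control on high sugar or library 4 of control on low sugar (0.36 to 0.45).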
